A study of Mus musculus with 22 samples.

Results

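The Wnt genes of the first mandibular molar were measured in mice carrying a Tgfbr2 mutation and in their wild-type littermates. The list was taken from the deposited table of normalised values. It holds every gene there whose symbol marks it as a Wnt ligand, a Frizzled receptor or an Sfrp (numbers 1 to 5) or Dkk inhibitor. R-spondins, the receptors Lgr4 to Lgr6, and Axin2, Lef1, Tcf7, Notum, Apcdd1, Wif1, Nkd1 and Znrf3 are also in it. These symbols matched 50 of the 28711 features in the deposited table of normalised values: 17 ligands, 10 Frizzled genes, the non-coding RNA Fzd10os, 9 secreted inhibitors, 7 R-spondin and Lgr genes, and 6 feedback targets and transcription factors. The rule names symbols and no measured value, and it was set with earlier results of these data known. The normalised table holds 28711 of the 55439 features with counts, and a gene absent from it could not become a member.

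Bulk RNA was sequenced from first mandibular molars on day 5 (P5) or day 11 (P11) after birth, with 1 library per sample. The mutant animals were heterozygous for the G357W substitution in Tgfbr2, the type II receptor for TGF-beta, as a mouse model of type II Loeys-Dietz syndrome (Tgfbr2-G357W/+, called Het here). The controls were Tgfbr2-+/+ littermates (WT). There were 6 WT and 6 Het libraries at P5, and 5 WT and 5 Het libraries at P11. The labels name no Cre or promoter that would limit the allele to some cells. A molar holds ameloblasts, odontoblasts, pulp, follicle and vessels together. A lower value in such bulk RNA can mean fewer cells of a type or less RNA per cell, and these cannot be told apart. With 5 Het and 8 WT mice named in the series text for 22 libraries, an animal may have given more than 1 library. P-values below measure the spread between libraries and may then be too small.

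Wnt proteins are secreted lipid-modified ligands that bind Frizzled receptors. Together with Lrp5 or Lrp6 this stabilises beta-catenin, which acts with Tcf and Lef factors on target genes, while other Wnt proteins such as Wnt5a mostly signal without beta-catenin. Sfrp proteins and Wif1 bind the ligands outside the cell, Dkk1 blocks Lrp5 and Lrp6, Notum removes the ligand's lipid, and R-spondins act through Lgr receptors to keep Frizzled on the cell surface by removing the ubiquitin ligases Znrf3 and Rnf43. In teeth the pathway is known for its part in tooth number, crown shape, enamel and dentin formation and later root growth.

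Library totals ranged from 32904047 to 45343814 counts, and levels are given in CPM, which sets each count against the scaled total of its library. At P11, Tgfbr2 itself was at 112 ± 4.76 CPM in WT (SD, n = 5) and 105 ± 6.43 CPM in Het (n = 5). The Het-to-WT difference was not called at either age (log2 0.05 ± 0.07 (SE), adjusted p = 0.959, at P5 and -0.09 ± 0.07, adjusted p = 0.725, at P11). The substitution changes the protein and leaves the gene in place, so this level does not check the genotype labels. The 5 enamel-matrix markers of secretory ameloblasts summed to 153000 to 168000 CPM in P5 WT and 17400 to 26100 in P11 WT, while 6 maturation-stage ameloblast markers summed to 1290 to 2470 and 59700 to 71300. In P11 Het the secretory markers summed to 33200, 44800, 42100, 20900 and 18300 CPM and the 6 odontoblast markers to 18300, 10300, 11200, 25400 and 26200, against 21100 to 28000 for odontoblast markers in P11 WT. Markers of bone cells (6 genes, 5 called higher at P11 in WT and 3 in Het) summed to 644 to 774 CPM in P5 WT and 1760 to 2490 in P11 WT. Those of pulp and follicle mesenchyme (6 genes) summed to 1040 to 1110 and 2130 to 2890. Of these, 4 were called higher and 2 lower at P11 in each genotype. The osteoclast markers (6 genes, all higher at P11) summed to 42.6 to 65.8 and 294 to 397. The age comparisons below therefore set molars of different cell state and cell makeup against each other, and how much of any member's change goes with that was not tested. In 5 libraries (2 of P5 Het, namely 4 and 5, 2 of P11 WT, also 4 and 5, and P11 Het 2) markers of muscle or oral keratinocytes were raised: the 10 keratinocyte markers reached 1530 CPM in sum and the 13 muscle markers 137 CPM, with Ivl and Myh3 under 1 CPM in every library. The keratinocyte sum was also higher at P11 in every library (2.05 to 3.56 CPM in P5 WT and 74.4 to 1530 in P11 WT, 2.12 to 17.9 in P5 Het and 89.8 to 899 in P11 Het), and its 9 tested markers rose with age in both genotypes. P5 Het library 6 is titled P5, while its tissue and treatment labels name P11. Its Wnt10b level was among those of the P5 libraries, and the counts of members called and the fits of the members were repeated without it.

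Of the 50 members, 46 had enough counts to be tested. The ligands Wnt1, Wnt16, Wnt8b and Wnt9b did not: over all 22 libraries they had 106, 111, 54 and 35 counts, and their highest value in any library was 0.67, 0.371, 0.254 and 0.178 CPM. The libraries are unstranded. Wnt11, Wnt5a, Wnt7b, Fzd5, Fzd6, Rspo3, Notum, Sfrp2, Axin2 and Lef1 share exon sequence with a gene on the opposite strand, and reads of the pair cannot be told apart.

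To compare genes with each other, CPM was divided by the length of the merged exons in kilobases (CPM per kb). At P5 the Wnt inhibitor Wif1 stood highest, at 139 ± 10.2 CPM per kb in WT (SD, n = 6), followed by the R-spondin Rspo4 at 76.2 ± 6.2, the ubiquitin ligase Znrf3 at 45.9 ± 5.15, the divergent Dickkopf protein Dkk3 at 43.0 ± 3.42 and the R-spondin receptor Lgr4 at 34.9 ± 6.23. Znrf3 and Dkk3 did not differ beyond their spread. The highest ligand was Wnt5a, at 23.2 ± 1.52 CPM per kb. At P11 the order in WT was Wif1 (221 ± 4.99 CPM per kb, n = 5), Sfrp4 (74.4 ± 15.7), Dkk3 (72.6 ± 12), Znrf3 (33.6 ± 3.32), Sfrp2 (32.5 ± 5.67) and Wnt5a (31.5 ± 2.19). Sfrp4 and Dkk3 overlapped in their spread, as did Znrf3, Sfrp2 and Wnt5a. Rspo4 had dropped to 6.13 ± 1.92 CPM per kb.

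Summed over the 9 secreted inhibitors, WT molars went from 226 ± 15.1 CPM per kb at P5 to 441 ± 31.9 at P11, while the summed ligands went from 80.3 ± 3.51 to 68.0 ± 3.82 and the summed Frizzled genes from 43.8 ± 3.0 to 42.2 ± 7.15. The R-spondin and Lgr sum went from 123 ± 8.14 to 57.3 ± 6.69. Het molars showed the same order, with inhibitors at 214 ± 7.28 and 393 ± 33.7 and R-spondin and Lgr genes at 120 ± 9.48 and 63.2 ± 17.5. In Het the ligand sum went from 80.9 ± 4.61 to 64.9 ± 3.68. The inhibitor sum was thus higher at P11, and the ligand sum and the R-spondin and Lgr sum lower, by more than the spread between libraries. The mean Frizzled sum did not move by more than that spread, but its P11 libraries formed 2 sets. In P11 WT it was 48.9, 44.9 and 47.8 CPM per kb in libraries 1 to 3, and 36.6 and 32.8 in libraries 4 and 5. The P5 WT libraries lay at 40.3 to 47.4. In P11 Het it was 47.0, 42.8 and 41.6 in libraries 1 to 3, and 35.3 and 37.9 in 4 and 5. Within each class the makeup also changed. Wnt10a, Wnt6, Wnt7a and Wnt3a made up 15.5%, 14.3%, 11.4% and 8.38% of the ligand sum in P5 WT, and 6.86%, 3.32%, 2.21% and 0.687% in P11 WT. Wnt10b went from 0.303% to 9.02% and Wnt5a from 29.0% to 46.4%. Among the receptors, Fzd3 made up 27.5% in P5 WT and 9.85% in P11 WT, and Fzd1 6.8% and 23.1%. Rspo4 made up 62.0% of the R-spondin and Lgr sum at P5 and 10.5% at P11, when Lgr4 (46.1%) and Lgr6 (29.7%) were its largest parts.

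**Figure D1:**
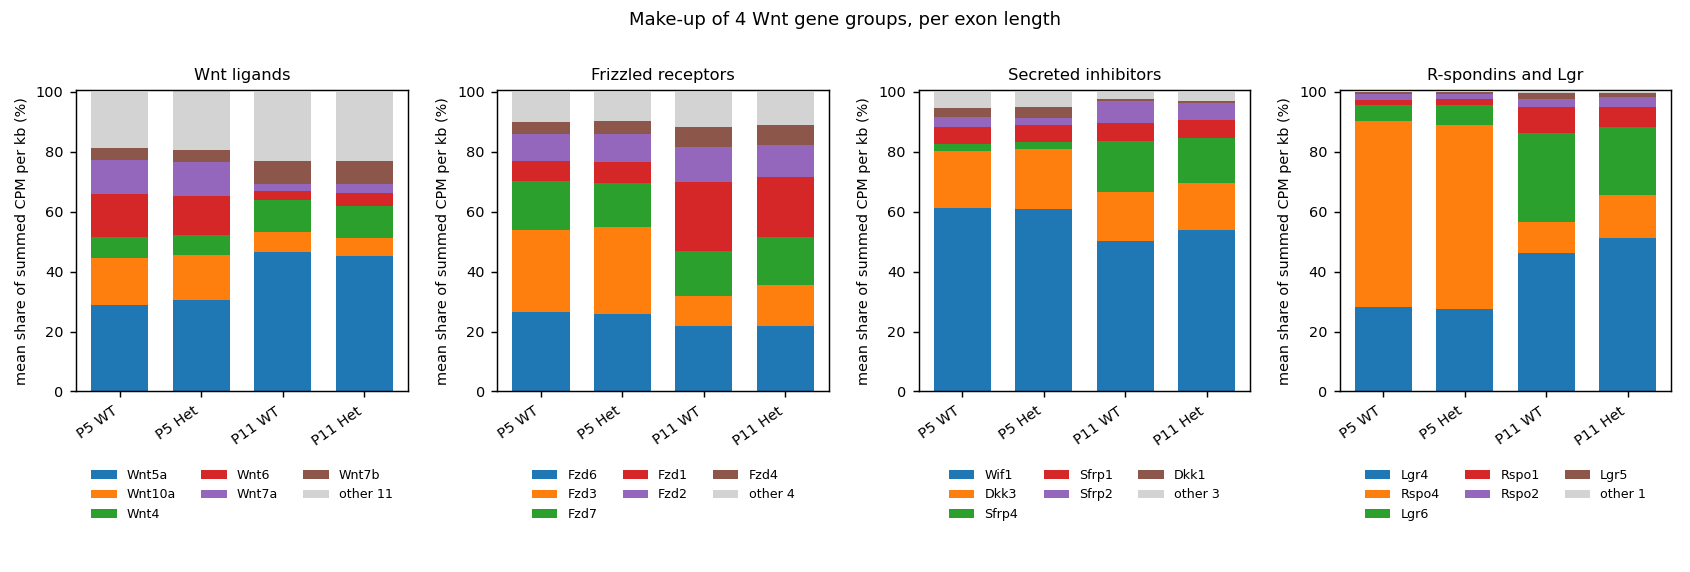
Stacked bars of the mean share (percent) of genes in the summed CPM per kb of their class, in the WT and Het groups of each age. The classes are the ligands, Frizzled genes, secreted inhibitors, and R-spondin and Lgr genes. The genes with the largest mean shares of each class are drawn singly and the others are pooled in grey. Wnt3a and Wnt10b are in the pooled part. At P5 Wnt5a is 29.0% of the ligand sum in WT and 30.4% in Het. Between ages it goes from 29.0% to 46.4% of the ligand sum and Rspo4 from 62.0% to 10.5% of its class in WT.

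With age, most of the Wnt list changed in both genotypes. In WT, 35 of the 46 tested members (76.1%) differed between P11 and P5, of which 20 rose and 15 fell. Over all 21510 genes tested, 49.4% were called (24.8% higher and 24.7% lower at P11). In Het, 32 members (69.6%) differed, 20 up and 12 down, against 47.8% of all genes (24.4% higher and 23.4% lower). A member is called when its p from edgeR's quasi-likelihood test, adjusted by Benjamini-Hochberg over all genes tested, is under 0.05. The P5 and P11 libraries did not overlap for 27 members (58.7%) in WT and 24 (52.2%) in Het, against 32.0% and 30.3% of all genes. In WT 16 members (34.8%) were called with a change over 2-fold, against 18.0% of all genes, and in Het 12 members (26.1%) against 16.6%. The median log2 change of the tested members was 0.18 in WT, beside -0.008 over all genes, and the median size of the change was 0.64 beside 0.39. In Het the median was 0.1 and the median size 0.63 beside 0.37. Called in the same direction in both genotypes were 32 members (69.6%), against 37.9% of all genes. Each genotype was compared within itself, on different libraries. Both comparisons came from 1 fit of all 22 libraries, which shares the scaling and the spread estimate of each gene. They are therefore not independent. Notum, Rspo2 and Sfrp5 were called in WT and not in Het. Fzd2, Fzd5, Fzd7, Lef1, Lgr4, Rspo3, Tcf7, Wnt11, Wnt2b, Wnt3 and Wnt5b were called in neither.

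**Figure D2:**
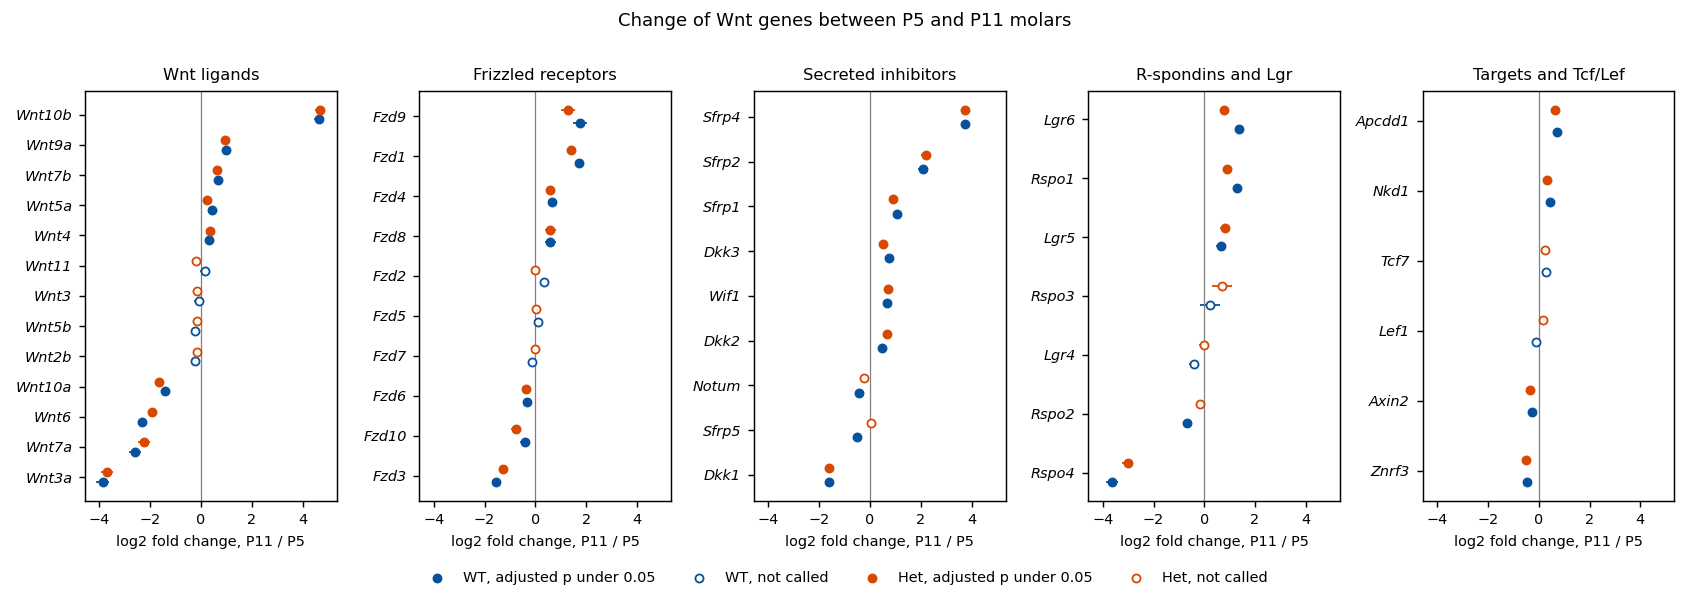
Log2 fold change of P11 against P5 for each tested member except Fzd10os, grouped by role, in WT (blue) and Het (orange). Points are the edgeR estimates, horizontal bars are ± 1 SE, and filled points passed the adjusted p threshold of 0.05. Wnt10b and Sfrp4 lie farthest to the right and Wnt3a and Rspo4 farthest to the left, in both genotypes.

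Of the 13 tested ligands, 5 rose and 4 fell with age in both genotypes. Wnt10b, a beta-catenin-type ligand known for promoting bone formation, was nearly absent at P5 and among the main ligands at P11. It lay between 0.454 and 1.13 CPM in the 6 P5 WT libraries (median 0.76) and at 25.1, 20.7, 22.7, 20.8 and 15.5 CPM in the P11 WT libraries. In Het it lay between 0.53 and 1.22 CPM at P5 (median 0.65) and at 20.1, 16.3, 21.9, 18.5 and 23.8 CPM at P11. Every P11 library of either genotype lay above every P5 library, and within an age the genotypes overlapped. The rise was 25.2-fold in WT (log2 4.66 ± 0.2 (SE), adjusted p = 3.68e-15) and 25.9-fold in Het (4.69 ± 0.2, adjusted p = 4.35e-15). The gene lies on the minus strand of chromosome 15 (GRCm38, chr15:98770712-98778150).

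The ligands that fell were Wnt3a, Wnt7a, Wnt6 and Wnt10a. Wnt3a, a classical beta-catenin ligand, lay between 14.3 and 23.6 CPM in P5 WT (median 18.5) and at 0.773, 1.25, 1.33, 1.39 and 1.62 CPM in P11 WT. In Het it lay between 17.8 and 26.9 CPM at P5 (median 21.4) and at 1.09, 3.38, 1.39, 1.33 and 1.23 CPM at P11. The ages were far apart in both genotypes, with P11 Het library 2 above the other P11 libraries. Wnt3a fell 14.6-fold in WT (log2 -3.87 ± 0.25, adjusted p = 4.95e-12) and 13.1-fold in Het (-3.71 ± 0.24, adjusted p = 7.46e-12). Wnt7a, a ligand known from epithelia and limb patterning, lay between 25.3 and 31.6 CPM in P5 WT (median 30.2) and at 6.75, 5.73, 6.1, 2.71 and 2.77 CPM in P11 WT. Its P11 Het values were 8.65, 8.97, 4.18, 3.6 and 4.82 CPM, all below the P5 Het libraries (24.8 to 33.9 CPM). Wnt7a thus fell without overlap of the ages, 6.03-fold in WT (log2 -2.59 ± 0.24, adjusted p = 3.25e-09) and 4.73-fold in Het (-2.24 ± 0.23, adjusted p = 2.76e-08).

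Wnt6, a ligand of epithelia, lay between 22.9 and 27.1 CPM in P5 WT (median 24.9) and at 6.78, 4.84, 4.72, 4.39 and 4.14 CPM in P11 WT. In P11 Het it was at 5.97, 8.18, 6.08, 5.32 and 4.43 CPM, against 21.6 to 23.8 CPM in P5 Het. No P11 library reached a P5 library, and the fall was 5.05-fold in WT (log2 -2.34 ± 0.13, adjusted p = 3.27e-13) and 3.82-fold in Het (-1.93 ± 0.13, adjusted p = 7.11e-12). Wnt10a, whose loss causes missing teeth in people, lay between 24.1 and 38.4 CPM in P5 WT (median 30.6) and at 10.3, 12.5, 9.42, 13.5 and 11.7 CPM in P11 WT. Its 5 P11 Het values, 10.2, 10.6, 8.94, 9.35 and 9.43 CPM, were likewise below all P5 Het libraries (24.4 to 36.4 CPM). The fall in Wnt10a was log2 -1.43 ± 0.12 in WT (adjusted p = 1.16e-09) and -1.64 ± 0.13 in Het (adjusted p = 1.33e-10).

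Wnt5a, the most abundant ligand per length at both ages, lay between 171 and 201 CPM in P5 WT (median 177) and at 262, 258, 257, 229 and 227 CPM in P11 WT. In Het it lay between 176 and 204 CPM at P5 (median 192) and at 233, 227, 242, 217 and 225 CPM at P11. The rise was small and free of overlap: log2 0.44 ± 0.06 in WT (adjusted p = 1.43e-06) and 0.25 ± 0.06 in Het (adjusted p = 0.00114). Wnt9a, known from joint formation, rose by log2 0.99 ± 0.15 in WT (adjusted p = 5.13e-06) and 0.94 ± 0.15 in Het (adjusted p = 1.11e-05), and Wnt7b, a ligand of epithelia, by 0.65 ± 0.13 (adjusted p = 0.000224) and 0.61 ± 0.13 (adjusted p = 0.000427). Wnt4, known from kidney and gonad development, rose by 0.32 in WT (adjusted p = 0.0265) and 0.36 in Het (adjusted p = 0.0127). Those calls were lost when P11 WT library 1 or 4 (adjusted p = 0.0617 to 0.0795) or P11 Het library 2 (adjusted p = 0.0623) was left out, and in both genotypes without the 5 libraries with raised markers (adjusted p = 0.0609 and 0.16). Wnt2b, Wnt3, Wnt5b and Wnt11 were called in neither genotype and stood between 1.46 and 10.8 CPM in every WT library. Wnt5b was called in WT without P5 WT 3 (-0.29, adjusted p = 0.0212).

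**Figure D3:**
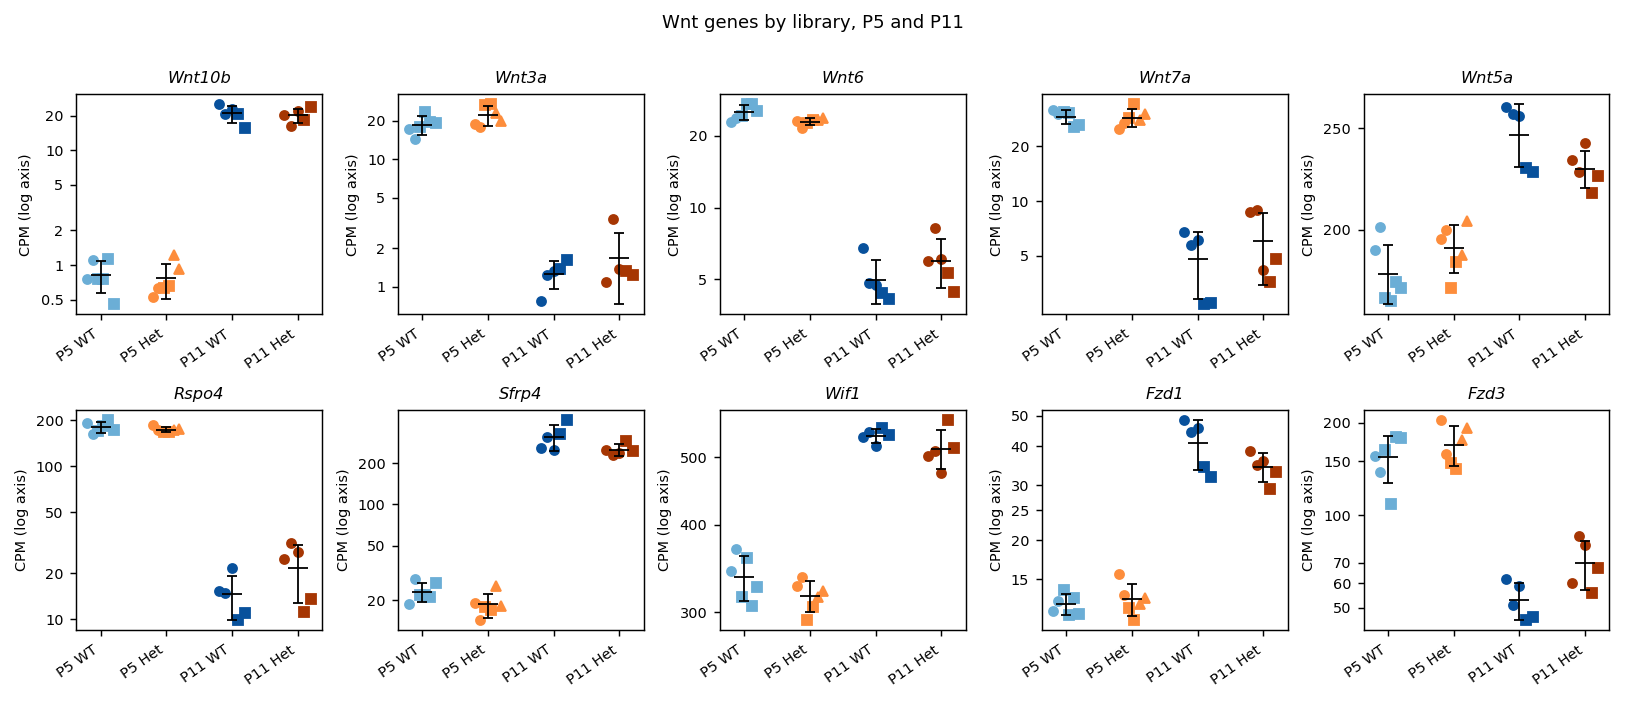
CPM (log axis) of 10 members that differ with age, in each library, WT and Het side by side at each age. Symbols mark the number ahead of the hyphen in the library name (circles 3 at P5 and 1 at P11, squares 4 and 2, triangles 5), and black marks are the group mean ± SD. Wnt10b lies at 0.454 to 1.22 CPM in all P5 libraries and 15.5 to 25.1 in all P11 libraries.

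Promoter windows are given for the ligands with the largest rise and fall, and for 3 further members described below (Rspo4, Sfrp2 and Dkk1). They show the stretch of DNA just ahead of the RefSeq starts of genes that move in opposite directions. Each is the 250 bases before the RefSeq start (GRCm38.p6), 5′ to 3′ on the gene's own strand, with CTTTGA (letters of the Tcf and Lef motif) and CAGAC (letters bound by Smad proteins), or their reverse complements TCAAAG and GTCTG, in capitals. The windows are chr15:98778151-98778400 on the minus strand for Wnt10b, chr11:59290752-59291001 on the minus strand for Wnt3a, chr2:151842677-151842926 on the plus strand for Rspo4, chr3:83766071-83766320 on the plus strand for Sfrp2 and chr19:30549497-30549746 on the minus strand for Dkk1.
Wnt10b: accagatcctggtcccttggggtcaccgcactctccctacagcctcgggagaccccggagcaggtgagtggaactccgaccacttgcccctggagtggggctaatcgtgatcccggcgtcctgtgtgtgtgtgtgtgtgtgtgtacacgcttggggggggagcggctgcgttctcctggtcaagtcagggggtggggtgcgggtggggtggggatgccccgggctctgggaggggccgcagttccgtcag
Wnt3a: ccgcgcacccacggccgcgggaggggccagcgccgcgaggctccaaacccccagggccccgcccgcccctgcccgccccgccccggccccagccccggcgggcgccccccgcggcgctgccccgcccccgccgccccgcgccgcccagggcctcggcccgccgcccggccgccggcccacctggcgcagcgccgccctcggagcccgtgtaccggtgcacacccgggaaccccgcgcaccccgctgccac
Rspo4: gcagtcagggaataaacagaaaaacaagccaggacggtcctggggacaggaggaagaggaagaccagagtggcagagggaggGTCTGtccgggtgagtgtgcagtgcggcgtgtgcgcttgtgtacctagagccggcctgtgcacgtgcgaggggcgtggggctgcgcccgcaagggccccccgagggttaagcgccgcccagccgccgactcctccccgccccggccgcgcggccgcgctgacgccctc
Sfrp2: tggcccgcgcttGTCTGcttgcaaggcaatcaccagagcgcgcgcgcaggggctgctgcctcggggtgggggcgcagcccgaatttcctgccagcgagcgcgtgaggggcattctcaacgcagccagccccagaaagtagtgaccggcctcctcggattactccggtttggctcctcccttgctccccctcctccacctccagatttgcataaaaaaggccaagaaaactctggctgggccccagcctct
Dkk1: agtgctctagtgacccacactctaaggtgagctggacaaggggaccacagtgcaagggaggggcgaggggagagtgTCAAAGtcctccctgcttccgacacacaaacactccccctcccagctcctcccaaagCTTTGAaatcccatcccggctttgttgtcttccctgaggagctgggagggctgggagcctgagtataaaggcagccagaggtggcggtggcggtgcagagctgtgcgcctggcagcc

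The window of Dkk1, a gene known as a target of beta-catenin, holds the Tcf and Lef letters at 2 places. They start 174 and 117 bases upstream of the RefSeq start. In the annotation used for exon lengths, Dkk1 begins at chr19:30549665 on the minus strand. Part of the window, with the place at 117 bases, lies inside that gene model. The window of Axin2, not printed here, holds the Tcf and Lef letters at 0 places. Those of Rspo4 and Sfrp2 hold the Smad letters once each, starting 168 and 238 bases upstream. The Wnt10b and Wnt3a windows hold neither motif, and the Wnt3a window is 87.6% G and C against 66.8% for Wnt10b. Windows were found for 33 of the 50 members, 40 windows in all. CTTTGA, searched on both strands, occurred in 5 of the 40 (Dkk1, Fzd1, Lef1, Wnt11 and Wnt5b), and in 13.8% of all 32851 windows of this length. CAGAC occurred in 17 of the 40, ahead of 14 members, and in 42.2% of all windows. The motifs do not overlap each other in the printed windows. A match is only a match of letters.

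Of the 10 Frizzled receptors, 4 rose and 3 fell with age in both genotypes, with opposite moves of the abundant members. Fzd1 lay between 11.5 and 13.9 CPM in P5 WT (median 12.3) and at 48.5, 44.3, 45.9, 34.3 and 31.9 CPM in P11 WT. In P11 Het it was at 38.7, 34.9, 36.0, 29.1 and 33.2 CPM, against 11.1 to 15.6 in P5 Het. All P11 libraries were above all P5 libraries, a rise of 3.28-fold in WT (log2 1.72 ± 0.11, adjusted p = 2.12e-12) and 2.65-fold in Het (1.41 ± 0.1, adjusted p = 8.05e-11). Fzd3, known for axon guidance and planar polarity, lay between 109 and 180 CPM in P5 WT (median 160) and at 62.1, 51.1, 58.8, 45.6 and 46.6 CPM in P11 WT. Its P11 Het values were 60.1, 85.4, 80.0, 56.0 and 67.2 CPM, against 141 to 204 CPM in P5 Het. The ages were apart in both genotypes, and Fzd3 fell 2.92-fold in WT (log2 -1.55 ± 0.14, adjusted p = 1.41e-09) and 2.44-fold in Het (-1.28 ± 0.14, adjusted p = 2.95e-08).

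Fzd9 rose by log2 1.75 ± 0.28 in WT (adjusted p = 1.49e-05) and 1.28 ± 0.28 in Het (adjusted p = 0.000522), from 0.195 to 1.11 CPM in P5 WT to 1.83 to 2.47 CPM in P11 WT. Fzd4, a receptor also of the non-Wnt ligand Norrin, rose by 0.64 ± 0.12 (adjusted p = 9.36e-05) and 0.56 ± 0.12 (adjusted p = 0.000439). Fzd8 rose by 0.59 in WT (adjusted p = 0.0268) and 0.58 in Het (adjusted p = 0.031). The call was lost in WT without P5 WT 5 or 6 or P11 WT 1, 2 or 3 (adjusted p = 0.051 to 0.0865) and in Het without P5 Het 3 or 5 or P11 Het 1 or 3 (adjusted p = 0.0505 to 0.129). The Het call was also lost with limma-voom (adjusted p = 0.0505) and without the 5 libraries with raised markers (adjusted p = 0.0885). Fzd6, a planar polarity receptor that fell by a small amount, had log2 -0.35 in WT (adjusted p = 0.00665) and -0.39 in Het (adjusted p = 0.00303). Without the 5 libraries with raised muscle or keratinocyte markers these became adjusted p = 0.084 and 0.0518. Fzd10 had log2 -0.43 in WT (adjusted p = 0.0453), and -0.78 in Het (adjusted p = 0.0008). The WT call was lost in 15 of the 22 omissions of 1 library (adjusted p = 0.0503 to 0.149), without the count filter (adjusted p = 0.0772) and without the 5 libraries (-0.24, adjusted p = 0.214). The non-coding Fzd10os, named as the opposite-strand gene of Fzd10, fell by 1.53 in WT (adjusted p = 0.000198) and by 0.82 in Het (adjusted p = 0.025). The Het call was lost without P5 Het 4 or P11 Het 3, 4 or 5 (adjusted p = 0.0523 to 0.0673). In the fit of 2 groups it was also lost (adjusted p = 0.0589). Fzd2, Fzd5 and Fzd7 were called in neither genotype. Fzd2 was called as higher at P11 in WT without the 5 libraries with raised markers (0.59, adjusted p = 0.0024). The P11 WT libraries kept in that fit are all of library name number 1. Fzd2 was also called in WT without P11 WT 5 (0.47, adjusted p = 0.0121).

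Most secreted inhibitors rose with age. In WT 6 of 9 rose, and 3 fell. In Het 6 rose, 1 fell and 2 were not called. Sfrp4, a bone and dental mesenchyme inhibitor whose loss thins cortical bone, changed most. It lay between 18.7 and 28.8 CPM in P5 WT (median 21.9) and at 256, 308, 251, 328 and 412 CPM in P11 WT. In Het it lay between 14.3 and 25.5 CPM at P5 (median 17.9) and at 248, 231, 236, 290 and 246 CPM at P11. Every P11 library was far above every P5 library, a rise of 13.4-fold in WT (log2 3.75 ± 0.15, adjusted p = 7.98e-16) and 13.4-fold in Het (3.75 ± 0.15, adjusted p = 9.84e-16). Sfrp2, another inhibitor of mesenchyme, lay between 9.24 and 22.3 CPM in P5 WT (median 17.9) and at 67.8, 61.4, 56.0, 80.9 and 84.2 CPM in P11 WT. Its rise was 4.22-fold in WT (log2 2.08 ± 0.18, adjusted p = 1.5e-09) and 4.58-fold in Het (2.19 ± 0.19, adjusted p = 8.39e-10), again with no overlap of the ages.

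Wif1, the most abundant member per length at both ages, lay between 306 and 369 CPM in P5 WT (median 335) and at 534, 543, 518, 550 and 537 CPM in P11 WT. In P11 Het it was at 502, 511, 474, 565 and 516 CPM, against 292 to 337 CPM in P5 Het. The rise, free of overlap, was log2 0.67 ± 0.06 in WT (adjusted p = 2.29e-09) and 0.7 ± 0.06 in Het (adjusted p = 1.38e-09). Sfrp1 rose by 1.08 ± 0.07 in WT (adjusted p = 1.02e-11) and 0.91 ± 0.07 in Het (adjusted p = 2.75e-10), and Dkk3 by 0.76 (adjusted p = 5.07e-06) and 0.52 (adjusted p = 0.000461). Dkk2, which can block Lrp6, rose by 0.46 in WT (adjusted p = 0.0202), a call lost without P11 WT 2 (adjusted p = 0.0965), and by 0.66 in Het (adjusted p = 0.00158). The WT call was also lost in the fit of 2 groups (adjusted p = 0.0648). Dkk1, the classical Lrp5 and Lrp6 blocker, went the other way: it lay between 13.3 and 19.1 CPM in P5 WT (median 17.0) and at 5.18, 4.66, 5.21, 6.84 and 5.48 CPM in P11 WT. It fell 3.03-fold in WT (log2 -1.6 ± 0.14, adjusted p = 8.82e-10) and 3.05-fold in Het (-1.61 ± 0.14, adjusted p = 8.32e-10), without overlap. Notum, the secreted enzyme that inactivates Wnt ligands, fell by log2 0.41 in WT (adjusted p = 0.00112), and its change in Het was -0.23 (adjusted p = 0.0531). The Het change was called without P5 Het 1 or 4, P11 WT 5 or P11 Het 1 (adjusted p = 0.0239 to 0.0495). DESeq2 also called it (adjusted p = 0.0439). Sfrp5 fell by 0.52 in WT (adjusted p = 0.00075) and stood at 0.05 in Het (adjusted p = 0.744). The difference between the genotypes in these changes was not called for either gene (interaction log2 0.18 ± 0.14, adjusted p = 0.671, for Notum and 0.57 ± 0.16, adjusted p = 0.347, for Sfrp5). Over the same interval the summed bone and mesenchyme markers rose, as given above, though the single mesenchyme genes went both ways. The part of these markers in the rise of Sfrp4 and Sfrp2 was not tested.

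Among the R-spondins and their receptors, Rspo4 fell and Rspo1 and the receptors Lgr5 and Lgr6 rose in both genotypes. Rspo4, the R-spondin whose loss in people leaves them without nails, lay between 162 and 201 CPM in P5 WT (median 180) and at 15.4, 14.9, 21.5, 9.86 and 11.0 CPM in P11 WT. In Het it lay between 168 and 187 CPM at P5 (median 172) and at 24.7, 31.7, 27.5, 11.2 and 13.5 CPM at P11. The ages were far apart. Rspo4 fell 12.4-fold in WT (log2 -3.64 ± 0.23, adjusted p = 2.71e-12) and 8.03-fold in Het (-3.01 ± 0.22, adjusted p = 5.11e-11). Lgr6, an R-spondin receptor known from skin, lay between 33.7 and 63.1 CPM in P5 WT (median 43.5) and at 124, 122, 139, 96.3 and 102 CPM in P11 WT. In P11 Het it was at 129, 70.9, 100, 87.8 and 83.4 CPM, and there it overlapped the P5 Het libraries (33.5 to 78.3 CPM). Lgr6 rose by log2 1.38 ± 0.18 in WT (adjusted p = 8.62e-07) and 0.79 ± 0.18 in Het (adjusted p = 0.000853). Rspo1 rose by 1.27 ± 0.13 (adjusted p = 2.53e-08) and 0.89 ± 0.13 (adjusted p = 6.26e-06), and Lgr5, a marker of many epithelial stem cells, by 0.66 (adjusted p = 0.00608) and 0.8 (adjusted p = 0.00152). Rspo2 fell by 0.69 in WT (adjusted p = 0.000484) and stood at -0.17 in Het (adjusted p = 0.376). That difference between genotypes was not called (interaction 0.52 ± 0.21, adjusted p = 0.43). Lgr4, the most abundant of these receptors, had -0.4 in WT (adjusted p = 0.0784) and no estimated change in Het (adjusted p = 0.997). The Het value rests on P11 Het 3, at 335 CPM against 122 to 181 CPM in the other P11 Het libraries, and without it was -0.29 (adjusted p = 0.119). The WT change was called in the fit of 2 groups (adjusted p = 0.017) and without P5 WT 4, P11 WT 1 or P11 Het 3 (adjusted p = 0.0189 to 0.0498). Rspo3 reached at most 1.53 CPM in any library.

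The feedback targets and factors moved little and in mixed directions: of 6, 2 rose, 2 fell and 2 were not called, in both genotypes. Apcdd1, a membrane inhibitor that beta-catenin induces, rose by log2 0.73 ± 0.1 in WT (adjusted p = 1.12e-06) and 0.64 in Het (adjusted p = 8.24e-06). Nkd1, an intracellular feedback inhibitor, rose by 0.45 (adjusted p = 0.000517) and 0.32 (adjusted p = 0.00995). Znrf3, the ligase that removes Frizzled from the surface, lay between 314 and 410 CPM in P5 WT (median 365) and at 240 to 303 CPM in P11 WT, with no overlap. It fell by 0.45 in WT (adjusted p = 0.000126) and by 0.52 in Het (adjusted p = 2.14e-05). Axin2, the most used readout of beta-catenin activity, lay between 15.7 and 19.3 CPM in P5 WT (median 17.5) and 12.7 and 16.7 CPM in P11 WT, so the ages overlapped. It fell by 0.28 in WT (adjusted p = 0.0195) and by 0.33 in Het (adjusted p = 0.00731). The WT call was lost without P5 WT 3, 4 or 5 or P11 WT 2 or 5 (adjusted p = 0.0519 to 0.0716), and the Het call without the 5 libraries with raised muscle or keratinocyte markers (adjusted p = 0.0907). Lef1 and Tcf7, nuclear partners of beta-catenin, had changes of -0.1 (adjusted p = 0.296) and 0.27 (adjusted p = 0.101) in WT and 0.15 (adjusted p = 0.101) and 0.26 (adjusted p = 0.114) in Het. The Tcf7 rise was called in WT without P5 WT 3 (adjusted p = 0.0459) or without the 5 libraries (0.4, adjusted p = 0.0478). The latter fit keeps only P11 WT libraries of library name number 1. In Het the Tcf7 rise was called without P5 Het 2 (0.34, adjusted p = 0.0465).

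Beside the members, 86 other genes of the pathway were looked at, of which 80 were tested. In WT 23 rose and 35 fell with age (72.5% called, against 49.4% of all genes). In Het 17 rose and 35 fell (65.0%, against 47.8% of all genes). Both genes of ligand secretion rose in both genotypes. Porcn, which attaches the lipid to Wnt, rose by log2 0.85 ± 0.09 in WT (adjusted p = 3.68e-08). Wls, which carries Wnt to the surface, rose there by 0.28 ± 0.05 (adjusted p = 0.000136). The factor Tcf7l2 fell by 1.97 in WT (adjusted p = 2.25e-15) and by 1.7 in Het (adjusted p = 2.54e-14), and the matricellular Ccn5, a Wnt target, rose by 3.27 ± 0.15 (adjusted p = 1.4e-14) and 2.57 ± 0.15 (adjusted p = 6.76e-13). Of 10 planar polarity genes, 1 rose and 5 fell in WT and 5 fell in Het, among them Celsr1 (log2 -1.68 ± 0.17 in WT, adjusted p = 9.16e-09). The dental epithelial inhibitor Sostdc1 fell by 1.42 in WT (adjusted p = 2.97e-09) and by 1.51 in Het (adjusted p = 1.32e-09). Its relative Sost, an osteocyte inhibitor at low level in these libraries, had 1.8 ± 0.69 in WT (adjusted p = 0.0345), and -0.161 when the 5 libraries high in those marker sets were left out. The secreted Draxin (1.63 ± 0.24, adjusted p = 4.11e-06) and the mesenchymal factor Twist1 (1.72 ± 0.16, adjusted p = 1.99e-09) rose in WT. Dact2, which binds Dishevelled, fell there by 1.97 (adjusted p = 1.89e-08). Celsr1, Draxin, Twist1 and Dact2 were also called in Het, in the same direction, in all 22 omissions of 1 library. The Het log2 change was -1.962 to -1.77 for Celsr1, 1.663 to 1.952 for Draxin, 1.661 to 1.775 for Twist1 and -2.008 to -1.728 for Dact2.

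The Tgfbr2 mutation was set against WT within each age, to ask how the Wnt genes differ in the mutant molar. For nearly all members no difference was called. At P5 0 of 46 tested members were called by edgeR (against 0.26% of all genes), 3 (6.52%) had an unadjusted p under 0.05 (6.22% of all genes), and for none were the 2 genotypes without overlap (0.851% of all genes). DESeq2 called 1, Sfrp2, and limma-voom 0. The shares of all genes given here are those of edgeR, and none is given for DESeq2 or limma-voom. Log2 differences at P5 ran from -0.69 to 0.29, and the 95% intervals of 44 of the 46 lay within 2-fold. At P11 0 members were called by edgeR (against 0.0279% of all genes), while 14 (30.4%) had an unadjusted p under 0.05 (9.85% of all genes). That count was 7 without the 5 libraries with raised markers and 9 in the fit of 2 groups. With the number ahead of the hyphen in the library name as a block it was 19. The fit without the 5 libraries drops all P11 WT libraries of name number 2 and keeps the Het ones. Its lower count cannot be told apart from that number or from the smaller groups. DESeq2 called 1, Lef1, and limma-voom 0. Lef1 and Notum were higher in every P11 Het library than in any P11 WT library, 4.35% of members against 1.36% of all genes. Differences at P11 ran from -0.57 to 0.58, with 44 of 46 intervals within 2-fold. Averaged over both ages, 1 member was called, Sfrp2, which was lower (against 0.172% of all genes called in either direction and 0.107% called lower), and 9 (19.6%) had an unadjusted p under 0.05 (6.85% of all genes). The change with age differed between genotypes for 0 members by edgeR (against 0.0139% of all genes), by DESeq2 and by limma-voom, and 8 (17.4%) had an unadjusted p under 0.05 (10.3% of all genes).

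**Figure D4:**
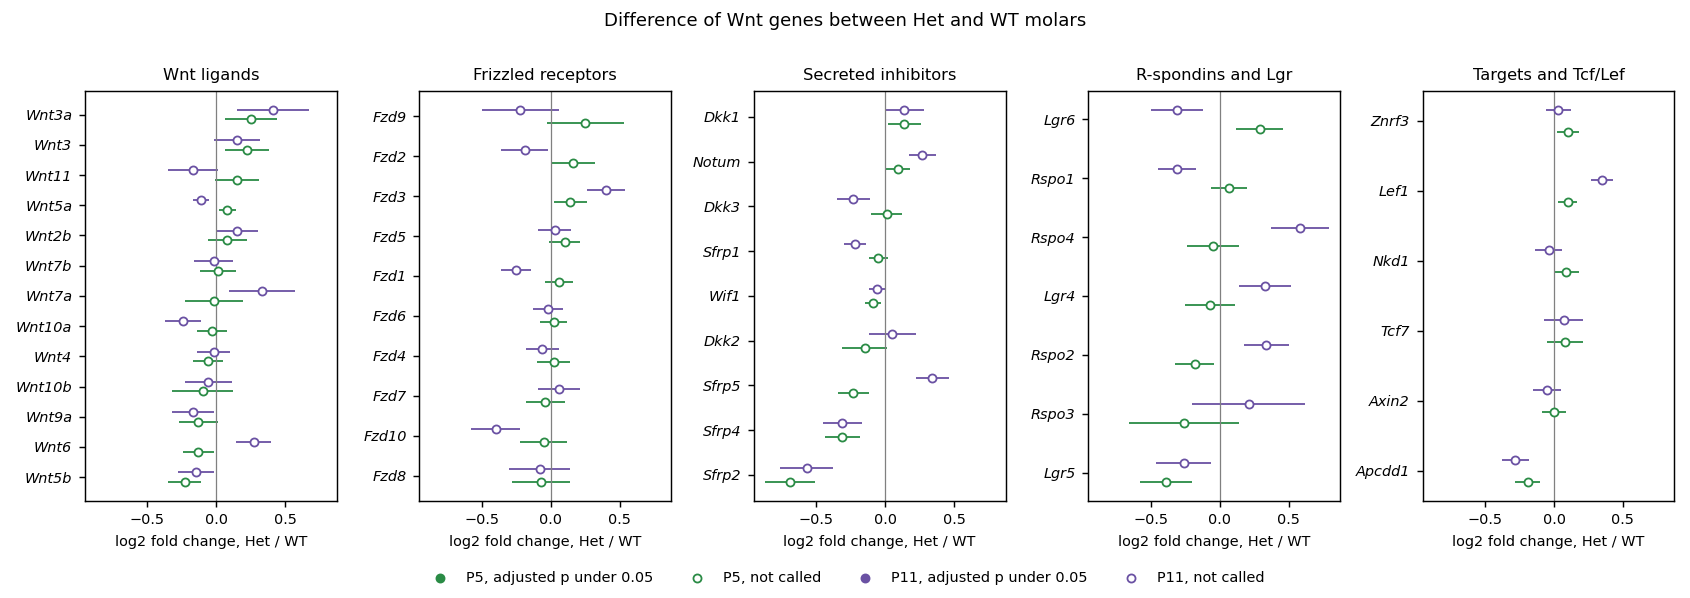
Log2 fold change of Het against WT for each tested member except Fzd10os, grouped by role, at P5 (green) and P11 (purple). Points are the edgeR estimates and bars ± 1 SE; open points did not pass the adjusted p threshold of 0.05, and all points are open. Sfrp2 lies to the left of zero at both ages, at -0.69 and -0.57.

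Sfrp2 had the largest genotype difference of the inhibitors and was lower in Het molars on average over the ages. At P5 its WT libraries were at 22.3, 20.4, 17.2, 18.7, 9.24 and 11.9 CPM and its Het libraries at 10.6, 11.1, 11.4, 9.04, 10.6 and 8.94 CPM. At P11 the WT libraries were at 67.8, 61.4, 56.0, 80.9 and 84.2 CPM and the Het libraries at 40.6, 34.7, 42.1, 65.5 and 52.4 CPM. The WT libraries were mostly higher, but P5 WT 5 lay among the Het values and P11 Het 4 among the WT values, so the groups overlapped at each age. The difference was log2 -0.69 ± 0.18 at P5 (adjusted p = 0.148), -0.57 ± 0.19 at P11 (adjusted p = 0.329) and -0.63 ± 0.13 on average over the ages (1.55-fold lower, adjusted p = 0.0424). It did not differ between the ages beyond its error (interaction 0.12 ± 0.26, adjusted p = 0.907). This call stands close to its threshold. It was lost in 17 of the 22 omissions of 1 library (adjusted p = 0.0513 to 0.0843), with limma-voom (-0.61, adjusted p = 0.0728) and in the fit that leaves out the 5 libraries high in muscle or keratinocyte markers (-0.48, adjusted p = 0.458). The omissions that lost it include P5 Het 6, whose labels conflict (adjusted p = 0.0774). It was kept without P5 WT 5 or 6, P11 WT 3, or P11 Het 4 or 5. DESeq2 gave the averaged difference an adjusted p of 0.000798, and at P5 alone 0.0246. At P5 edgeR called Sfrp2 without P5 WT 5 (-0.81, adjusted p = 0.0298). Within the sets of libraries that share the number ahead of the hyphen in their names, whose meaning the labels do not give, Sfrp2 had a lower mean in Het in each: the log2 ratio was -0.97 and -0.48 for numbers 3 and 4 at P5, and -0.66 and -0.49 for numbers 1 and 2 at P11. Number 5 holds Het libraries only. With that number as a block the averaged difference was -0.64 (adjusted p = 0.00636). The fit without the 5 libraries drops P11 WT 4 and 5, the only WT libraries of number 2, and keeps the Het ones. At P11 it therefore cannot fully separate genotype from that number. There the Sfrp2 difference was -0.3 (adjusted p = 0.727). The pulp and follicle mesenchyme markers summed to 1010 to 1050 CPM in P5 Het and 1730 to 2320 in P11 Het, and bone markers to 618 to 748 and 1440 to 1940, against the WT ranges given above. Their part in the Sfrp2 difference was not tested.

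Lef1 was the member with the smallest p at P11. Its P11 WT libraries were at 18.7, 15.6, 19.7, 17.3 and 17.2 CPM and its P11 Het libraries at 20.7, 21.5, 26.6, 21.6 and 22.6 CPM. Every Het value lay above every WT value at P11, while at P5 WT (17.9 to 20.4 CPM) and Het (17.7 to 21.9 CPM) overlapped. The P11 difference was log2 0.35 ± 0.08 (1.28-fold, adjusted p = 0.106). Over its 30 alternatives it stayed between 0.29 and 0.39, with adjusted p from 0.011 (DESeq2) to 0.513. Averaged over the ages it was 0.23 ± 0.05 (adjusted p = 0.091), with adjusted p from 0.0135 (DESeq2) to 0.325 over its alternatives. At P11 the log2 ratio was 0.35 within each of the library name numbers 1 and 2. At P5 it was 0.19 within number 3 and -0.02 within number 4. Notum, the other member without overlap, was at 8.61, 8.48, 8.71, 8.21 and 7.21 CPM in P11 WT and at 11.4, 9.45, 10, 9.63 and 9.09 CPM in P11 Het, a difference of 0.27 ± 0.1 (adjusted p = 0.384). Tcf7l2, another Tcf factor and no member of the list, was also higher in every P11 Het library (349 to 391 CPM) than in any P11 WT library (251 to 324 CPM), by 0.29 ± 0.08 (adjusted p = 0.223).

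**Figure D5:**
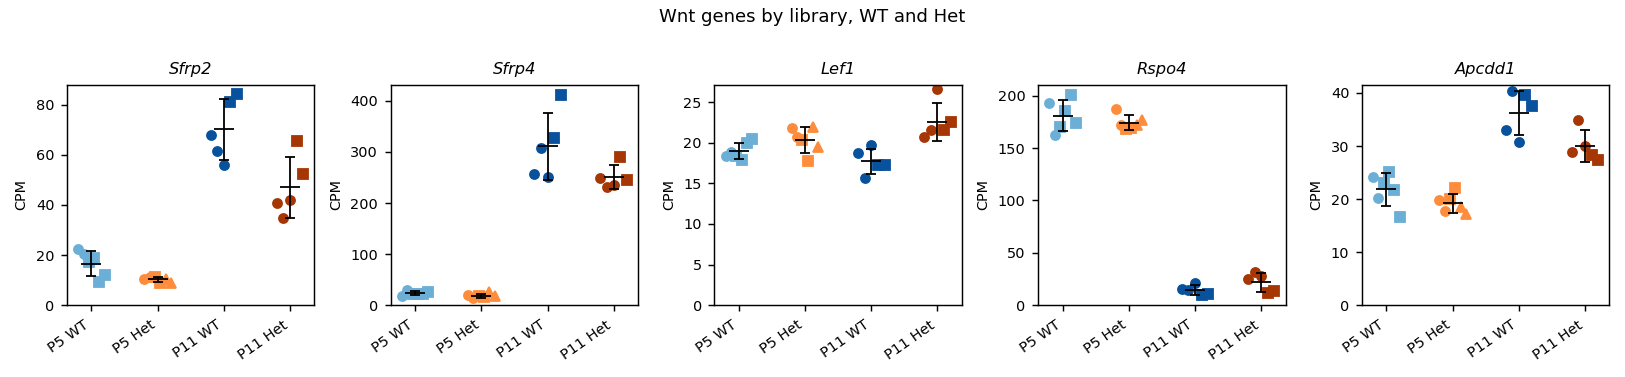
CPM (linear axis from 0) of Sfrp2, Sfrp4, Lef1, Rspo4 and Apcdd1 in each library, WT and Het side by side at each age. Symbols mark the number ahead of the hyphen in the library name (circles 3 at P5 and 1 at P11, squares 4 and 2, triangles 5), and black marks are the group mean ± SD. The P11 Het libraries of Lef1 (20.7 to 26.6 CPM) lie above those of WT (15.6 to 19.7 CPM).

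The other members given here, inhibitors and others, were not called between genotypes in the main fit. Sfrp4 had a log2 difference of -0.31 ± 0.13 at P5 (adjusted p = 0.708) and -0.31 ± 0.14 at P11 (adjusted p = 0.467), and Sfrp1 -0.22 ± 0.08 at P11 (adjusted p = 0.344). Sfrp5 had 0.34 ± 0.12 at P11 (adjusted p = 0.366). Apcdd1 had -0.23 ± 0.07 on average over the ages (adjusted p = 0.287), and Lgr5 -0.39 ± 0.19 at P5 (adjusted p = 0.793). Fzd3 had 0.4 ± 0.14 at P11 (adjusted p = 0.354). Rspo4, whose P11 values are given above, had 0.58 ± 0.21 at P11 (adjusted p = 0.378). Its P11 values also went with the library name number: libraries of number 1 were at 14.9 to 21.5 CPM in WT and 24.7 to 31.7 in Het, and those of number 2 at 9.86 to 11.0 and 11.2 to 13.5. Het lay above WT within each number, and with the number as a block the Rspo4 difference was 0.52 (adjusted p = 0.0323). Over its 30 alternatives it ranged from 0.15 to 0.76, with adjusted p up to 0.872. The P11 Het libraries with high Rspo4 (1, 2 and 3) are those with the higher secretory ameloblast sums given above, and among WT the libraries of number 1 likewise had the higher sums (23700 to 26100 CPM against 17400 and 17800). The part of these markers in the Rspo4 difference was not tested. Sfrp2 and Dkk3 were split by that number at P11 in the opposite sense. Sfrp2 was at 56.0 to 67.8 CPM in number 1 and 80.9 to 84.2 in number 2 among WT, and Dkk3 at 196 to 241 and 256 to 304. Number 2 holds WT libraries 4 and 5 and Het libraries 4 and 5. Further members were split by the number at P11 in both genotypes, with number 1 higher. Among them were Fzd1, Fzd7, Fzd8, Wnt5a, Sfrp1 and Rspo2. Fzd1 was at 44.3 to 48.5 CPM in number 1 and 31.9 to 34.3 in number 2 among WT. Among Het it was at 34.9 to 38.7 and 29.1 to 33.2. The changes of these members with age are taken over both sets of libraries.

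Of the 80 other pathway genes tested, edgeR called 0 in each of the genotype comparisons and in the interaction. Unadjusted p-values under 0.05 numbered 8 at P5, 8 at P11, 7 on average over the ages and 11 in the interaction, or 10%, 10%, 8.75% and 13.8% of those tested, beside 6.22%, 9.85%, 6.85% and 10.3% of all genes. DESeq2 called Ccn5 at P5 and Tcf7l2 at P11, and limma-voom called 0 in all 4, with no share of all genes given for either. Wls was lower in every P5 Het library (168 to 176 CPM) than in any P5 WT library (177 to 192 CPM), with a log2 difference of -0.1 (adjusted p = 0.82).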

How the data were processed

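The 22 libraries were unstranded, per the labels' protocols, and the submitters' processing notes name STAR 2.7.3a, GRCm38, DESeq2, edgeR and limma without saying in which order. The authors deposited a table of raw read counts per gene and a table of normalised signal values, which are CPM after TMM scaling, as recomputing them from the counts showed (relative difference at most 5.11e-15). Members were found in the normalised table and analysed in the count table. Of 55439 features, 18 that are not of mouse were left out. How reads were counted is not stated in the labels or headers.

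The tests used edgeR 4.0.16 in R 4.3.3: TMM scaling, filterByExpr (minimum count 10, minimum total 15, 21510 genes left), and 1 quasi-likelihood fit of the 4 groups (18 residual degrees of freedom). P-values are two-sided and adjusted by Benjamini-Hochberg over all genes tested, with a threshold of 0.05. The SE was taken as the size of the log2 estimate over the root of its F value. The members and lists were chosen with earlier results of these data known. Named with values are the highest and the most changed members of each role, those called between genotypes, and those of smallest p in each genotype comparison; other members named are there to account for the list. Alternatives were RLE size factors, DESeq2 1.42.0, limma-voom (limma 3.58.1), no count filter, blocks for the replicate number and the library name number, fits of 2 groups, and omission of the 5 libraries with raised muscle or keratinocyte markers and of each library in turn. Omission of the 5 libraries leaves only library name number 1 in P11 WT. The main fit was tested on simulated data. Promoter windows are from RefSeq (GRCm38.p6).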

Additional observations from a re-analysis of the deposited data

Results flagged for a closer look

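In 5 of 124 sets of libraries (31 named members in 4 groups), the highest or lowest library stood apart from the others by Dixon's criterion. Chance gives about 1 in 20. All 5 are at P11. Wnt3a was at 3.38 CPM in P11 Het 2, Wnt6 at 6.78 CPM in P11 WT 1, Lgr4 at 335 CPM in P11 Het 3, and Nkd1 and Tcf7 at 26.9 and 25.2 CPM in P11 Het 1. P11 Het 2 is also a library with raised muscle and keratinocyte markers. Its part in the Wnt3a value was not tested.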

How the results depend on the processing

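Over the 79 values of genes that the naming rule selects, 2256 of their values under an alternative kept their direction and side of the threshold, 4 gained a call, 35 lost one and 1 reversed (Sost with age in WT, -0.161 without the 5 libraries with raised muscle or keratinocyte markers). Call changes of members outside that rule, such as Notum, Fzd2, Fzd8, Fzd10, Wnt4, Wnt5b and Dkk2, are not in this tally. Nor are those of Tcf7 and Lgr4 with age and of Rspo4 between genotypes. These stand beside their values. The cause was not tested. The count of members called with age ranged from 31 to 36 in WT and 28 to 33 in Het. Age effects cannot be had with the library name number as a block, since that number is nested in age. Members called between genotypes at P5 numbered 1 with DESeq2 and 0 to 1 over the omissions of 1 library. At P11 they numbered 1 with DESeq2 (Lef1) and 1 with the library name number as a block (Rspo4). For the average over the ages they numbered 2 with DESeq2, 0 with limma-voom, 0 without the 5 libraries, and 0 to 1 over the omissions. With the replicate block 0 members were called for that average (Sfrp2 -0.63, adjusted p = 0.0676). The shares of all genes called under these alternatives are not given. The replicate numbers do not pair the libraries: same-numbered libraries deviated with correlations of 0.037 to 0.208 at P5 and -0.134 to 0.106 at P11, and not every library correlated best with its own number. Members under about 1 CPM (Wnt1, Wnt16, Wnt8b, Wnt9b) are limited by depth. Without the count filter, Wnt1 was called with age at log2 3.73 in WT (adjusted p = 8.53e-05) and 3.12 in Het (adjusted p = 0.00291).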

Other observations

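The genes between the receptor and the nucleus also moved with age, in mixed directions. Of 7 co-receptor genes, 1 rose and 3 fell in each genotype, and of 23 intracellular genes 6 rose and 10 fell in each. Of 13 nuclear genes 1 rose and 6 fell in WT, and 1 rose and 7 fell in Het. Of 14 tested extracellular modulators outside the main list, 6 rose and 6 fell in WT, and 2 rose and 7 fell in Het. Of all genes tested, 49.4% were called with age in WT and 47.8% in Het. Whether the genotypes differ in these counts of pathway genes was not tested. Examples, chosen after their values were seen, are the co-receptor Lrp5, which fell by log2 0.33 in WT (adjusted p = 0.016) and by 0.37 in Het (adjusted p = 0.00707), its relative Lrp6, with 0.17 in WT (adjusted p = 0.0561) and 0.01 in Het (adjusted p = 0.886), and Ctnnb1, the gene of beta-catenin, which rose by 0.53 ± 0.13 in WT (adjusted p = 0.00165) and 0.49 ± 0.13 in Het (adjusted p = 0.00366).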
